A study of Mus musculus with 28 samples.

Results

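The stable narrow enhancers without a Brg1 region are 5851 distal H3K27ac regions of day 4 mouse mesodermal cultures that stayed enriched in cultures given 4-hydroxytamoxifen to delete *Brg1* and that no list of Brg1-FLAG enrichment touched. They were chosen by their H3K27ac and FLAG regions. H3K27ac regions of the 2 control replicates were joined where they had 1 bp or more in common. Those present in both replicates, more than 2.5 kb from any transcription start site (TSS) and under 3000 bp wide gave 13445 narrow distal regions, which serve here as predicted enhancers. The 5851 stable regions overlapped a region of both 4-OHT replicates and no region of any of the 3 FLAG lists. They made up 43.5% of the narrow distal regions (exact 95% binomial interval 42.7% to 44.4%) and 21.4% of all 27332 control regions found in both replicates. Of the other narrow distal regions, 3591 had no FLAG region and overlapped neither 4-OHT list (lost regions), 1242 had no FLAG region and overlapped 1 of the 2 4-OHT lists, 1368 had a FLAG region and overlapped both 4-OHT lists (stable regions with FLAG), and 1393 had a FLAG region and overlapped 1 or none.

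Every sample was made from ESCs differentiated for 4 days, the last 40 h in VEGF, Activin A and BMP4. The labels give *Brg1* f/f;*Actin-CreER* for all of them, controls included, so that a Cre recombinase expressed from the actin promoter and activated by 4-hydroxytamoxifen (4-OHT) can remove the floxed *Brg1* exons. 4-OHT was given at 200 nM in tetrahydrofuran (THF) from day 2, and control cultures had THF alone. ChIP-seq was done for H3K27ac (2 THF and 2 4-OHT replicates), H3K27me3 (3 and 3), Suz12 (2 and 2) and FLAG (3 replicates, no treatment contrast), and 11 input samples served the authors for calling. The study describes its replicates as biological ones, and for FLAG it describes 2 of them where the labels give 3. For FLAG the methods of the study describe ESCs with a triple FLAG tag on endogenous Brg1, which the labels of those samples do not mention. The lists hold no measure of Brg1 itself in the 4-OHT cultures, so the deletion could not be checked here. Of 8 mesoderm genes, 5 and 7 had an H3K27ac region over a TSS in the THF replicates and 3 and 4 in the 4-OHT replicates, with *Mixl1*, *Eomes* and *Evx1* marked in all 4 lists and *Kdr* in none. None of 6 neural ectoderm genes was marked in any list, and of 6 cardiomyocyte genes *Tnnt2* alone was marked, in both THF lists.

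Brg1 is the ATPase of BAF complexes, which slide and evict nucleosomes and so change how accessible DNA is to transcription factors. Acetylation of histone H3 on lysine 27 marks active enhancers and promoters, whereas trimethylation of the same lysine is placed by Polycomb repressive complex 2, of which Suz12 is a core subunit. Enhancers are bound through short DNA motifs, and in early mesoderm T-box, GATA, Fox and Tcf/Lef factors act through such sites downstream of Nodal, BMP and Wnt signals. AP-1, a dimer of Fos and Jun family proteins, binds TGAGTCA and is used at enhancers in many cell types that respond to growth factors and adhesion.

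Among the motifs searched, AP-1 had the largest difference in percentage points between stable and lost regions, and examples are shown first. All sequences are of the mm9 build on the plus strand unless another strand is given, are 200 bases around the centre of a stable region, and have matches to the 16 motifs described below in capitals. The first pair of stable regions each held a single AP-1 match. One had its centre in an intron of *Smarcc2*, which encodes a core BAF subunit. The other had its centre in an intron of *Rbpms*, an RNA-binding protein gene that was the nearest gene to more stable regions than any other. Intron or exon is given for the centre of a region and not for the match.
Smarcc2, chr10:127911226-127911425: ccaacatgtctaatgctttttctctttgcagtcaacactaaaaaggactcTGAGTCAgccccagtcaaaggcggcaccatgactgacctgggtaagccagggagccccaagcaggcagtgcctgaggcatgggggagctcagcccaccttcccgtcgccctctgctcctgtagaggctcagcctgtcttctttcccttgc
Rbpms, chr8:35020076-35020275: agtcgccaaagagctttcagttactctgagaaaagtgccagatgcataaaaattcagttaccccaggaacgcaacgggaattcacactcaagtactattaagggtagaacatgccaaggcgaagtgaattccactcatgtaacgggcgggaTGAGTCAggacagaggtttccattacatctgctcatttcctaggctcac

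Of the 5851 stable regions, 18 carried 4 to 10 AP-1 matches within their central 300 bp, and 4 of these are shown because the matches sit in tandem repeats. They were chosen after their values were seen and are named by the nearest protein-coding TSS.
Nell2, chr15:95107101-95107300: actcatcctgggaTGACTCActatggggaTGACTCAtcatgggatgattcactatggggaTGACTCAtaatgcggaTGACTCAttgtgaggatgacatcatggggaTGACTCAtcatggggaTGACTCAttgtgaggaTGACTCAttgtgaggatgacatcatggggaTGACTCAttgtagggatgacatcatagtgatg
Pomc, chr12:3973313-3973512: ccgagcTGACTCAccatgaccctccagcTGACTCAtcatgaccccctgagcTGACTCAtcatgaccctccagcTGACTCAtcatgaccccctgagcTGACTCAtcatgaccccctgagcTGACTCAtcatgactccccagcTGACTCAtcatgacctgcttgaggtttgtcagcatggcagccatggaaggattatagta
Tmem108, chr9:103573051-103573250: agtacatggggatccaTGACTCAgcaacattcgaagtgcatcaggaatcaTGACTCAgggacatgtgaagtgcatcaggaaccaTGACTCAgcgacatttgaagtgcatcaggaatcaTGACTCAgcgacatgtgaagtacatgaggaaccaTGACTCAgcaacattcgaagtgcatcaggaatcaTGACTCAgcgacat
Foxa2, chr2:147569851-147570050: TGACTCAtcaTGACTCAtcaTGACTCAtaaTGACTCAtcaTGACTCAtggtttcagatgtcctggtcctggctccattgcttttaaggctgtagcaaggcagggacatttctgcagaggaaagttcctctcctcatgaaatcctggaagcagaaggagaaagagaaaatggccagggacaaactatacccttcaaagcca
In the region 251 kb from the *Nell2* TSS the most frequent spacing between successive matches was 16 bp, in the region near *Pomc* 23 bp and near *Foxa2* 10 bp. In the *Tmem108* intron all 6 spacings were 34 bp.

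A second set of sequences is shown because stable regions at unlinked places shared it. The next 5 stretches, each 61 bases and read on the strand that spells TGAGTCA, come from 41 stable regions on 16 chromosomes whose central windows were joined into a group by at least 10 shared words of 24 bases. These too were chosen after their values were seen. Copies with less alike flanks, such as those near *Cbx6* and *Sec61g*, are not shown.
Syt15, chr14:35071853-35071913, plus strand: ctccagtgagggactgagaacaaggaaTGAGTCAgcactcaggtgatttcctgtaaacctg
Fbxo33, chr12:60608610-60608670, minus strand: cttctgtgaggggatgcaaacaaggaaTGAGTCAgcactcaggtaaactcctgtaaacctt
Lmx1a, chr1:169846108-169846168, plus strand: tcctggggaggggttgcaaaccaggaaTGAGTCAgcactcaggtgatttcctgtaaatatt
Gc, chr5:89784095-89784155, plus strand: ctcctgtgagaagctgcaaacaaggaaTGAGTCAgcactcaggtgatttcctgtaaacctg
Gm6816, chr7:122091980-122092040, plus strand: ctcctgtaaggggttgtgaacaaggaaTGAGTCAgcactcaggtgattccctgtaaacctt

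Stable regions without an AP-1 match are shown last. The regions nearest to *Mesp1*, a basic helix-loop-helix regulator of cardiac mesoderm, and *Nodal*, the TGFβ family ligand of the primitive streak, are shown with that nearest to *Actb*, a gene used in every cell, and with the central 200 bases of a region in *Dst*, which had the greatest covered length of all. The *Nodal* and *Dst* stretches held a Fox match and the *Actb* stretch a T-box match, and the *Mesp1* stretch held none of the 16 motifs.
Mesp1, chr7:86933651-86933850: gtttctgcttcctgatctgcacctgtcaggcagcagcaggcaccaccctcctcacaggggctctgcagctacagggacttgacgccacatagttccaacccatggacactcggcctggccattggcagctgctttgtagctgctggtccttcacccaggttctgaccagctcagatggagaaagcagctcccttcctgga
Nodal, chr10:60872601-60872800: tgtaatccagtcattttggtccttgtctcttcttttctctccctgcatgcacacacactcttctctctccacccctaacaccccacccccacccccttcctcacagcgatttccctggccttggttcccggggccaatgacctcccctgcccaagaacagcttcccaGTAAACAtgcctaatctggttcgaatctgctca
Actb, chr5:143664276-143664475: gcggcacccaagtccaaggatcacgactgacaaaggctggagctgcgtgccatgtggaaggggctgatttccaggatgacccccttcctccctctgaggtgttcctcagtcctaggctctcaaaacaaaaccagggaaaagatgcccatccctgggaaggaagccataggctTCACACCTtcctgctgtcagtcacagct
Dst, chr1:34063363-34063562: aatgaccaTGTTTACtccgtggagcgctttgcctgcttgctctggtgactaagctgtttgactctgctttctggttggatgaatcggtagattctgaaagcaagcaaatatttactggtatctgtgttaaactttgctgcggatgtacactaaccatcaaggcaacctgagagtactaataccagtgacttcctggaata

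THF replicate 2 stood apart from the other 3 H3K27ac lists. Over the stable regions the Spearman correlation of covered lengths was 0.60 and 0.68 between THF replicate 2 and 4-OHT replicates 1 and 2, compared with 0.82 and 0.81 for THF replicate 1, 0.81 between the THF replicates and 0.87 between the 4-OHT replicates. These correlations are over 5851 regions of the same 4 libraries and are a description. In lost regions the median covered length was 200 bp in THF replicate 1 and 425 bp in THF replicate 2. The AP-1 result below is therefore also given without either THF list.

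Over the stable regions, both 4-OHT lists had a lower median covered length than both THF lists, while the ranges over regions overlapped. The lists hold positions and no read counts, so the depth of each library is unknown, and the bases of a region that a list covers is the only measure of level they give. The median covered length over the 5851 regions was 650 bp and 575 bp in THF replicates 1 and 2, and 525 bp and 500 bp in 4-OHT replicates 1 and 2. The middle 80% of regions lay between 225 and 1675 bp in THF replicate 1 and between 150 and 1525 bp in 4-OHT replicate 2, so the 4 distributions overlapped. Presence in all 4 lists is what the selection fixed, and these lengths describe the regions and are not a test.

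**Figure D1:**
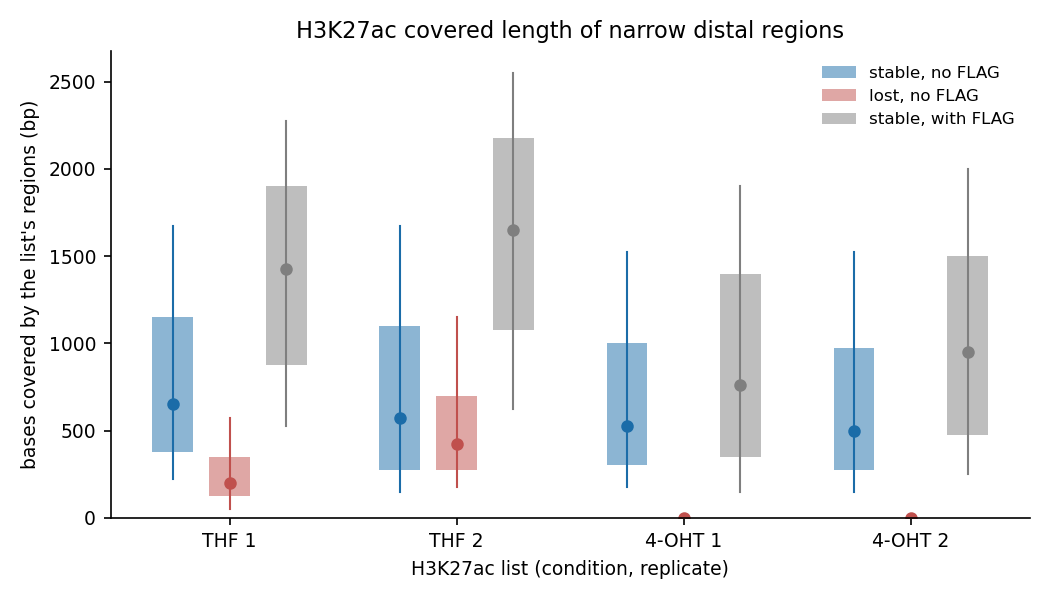
Bases covered by each H3K27ac list (y axis, bp) in stable regions without FLAG, lost regions and stable regions with FLAG, for the 2 THF and 2 4-OHT lists (x axis). Points are medians, boxes the middle 50% and lines the middle 80% of regions. The stable regions without FLAG had medians of 650, 575, 525 and 500 bp, lost regions were at 0 in both 4-OHT lists by selection, and stable regions with FLAG had medians of 1425 and 1650 bp in THF and 762.5 and 950 bp in 4-OHT.

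Among the stable regions the mean covered length in 4-OHT was above the THF mean in 2906 and below it in 2733, with a median log2 ratio of 0.00 on a scale with 25 bp added to each length. Both 4-OHT lengths were below both THF lengths in 1467 regions (25.1%, against 60.4% of all narrow distal regions), and both were above in 378 (6.46%, against 2.90%). The selection used the same lists, and 53.7% of all narrow distal regions overlapped both 4-OHT lists, so nothing is read from these shares. The stable regions with FLAG, selected on the same 4-OHT lists, had a median log2 ratio of -0.55, and both 4-OHT lengths were below both THF lengths in 65.2% of them.

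The share of regions that were stable was higher among wider regions. A wider region has more bases in which 1 bp can overlap a 4-OHT region, and width and the H3K27ac lists were used in the selection, so these shares are a description. Among narrow distal regions without FLAG, 35.2% of those under 300 bp were stable (95% interval 33.0% to 37.6%), 60.4% of those from 600 to under 1000 bp (58.4% to 62.4%) and 87.7% of those from 2000 to under 3000 bp (84.5% to 90.4%). The median width was 775 bp for stable regions, 450 bp for lost regions and 1700 bp for stable regions with FLAG. A FLAG region was also found more often on wide regions, on 5.56% of those under 300 bp and 52.5% of those from 2000 bp. The FLAG lists had 8021, 8257 and 192 regions with median widths of 75 to 125 bp, so that the absence of a FLAG region is an absence from these lists.

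At the limits of the selection, the regions just inside and just outside were these. The widest stable regions, 2975 bp in *Dst* on chromosome 1 and 2975 bp at chr8:18804126-18807100, had covered lengths of 2950, 2950, 2975 and 2975 bp and of 2800, 2975, 1650 and 1725 bp in THF replicates 1 and 2 and 4-OHT replicates 1 and 2. The nearest regions outside the width limit, both 3000 bp, had 3000, 2900, 2900 and 2850 bp at chr8:91525726-91528725 and 2950, 2725, 3000 and 3000 bp at chr9:120583376-120586375. At the TSS limit, stable regions 2503 and 2506 bp from a TSS had covered lengths of 325, 325, 200 and 125 bp and of 600, 375, 600 and 600 bp. Those 2500 and 2495 bp away, which were left out, had 600, 250, 400 and 550 bp and 975, 1075, 625 and 800 bp.

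By position, stable regions lay nearer to genes than lost regions. The median distance to a TSS was 14.0 kb (95% interval 13.4 to 14.5 kb) for stable regions, 24.9 kb (23.4 to 26.6 kb) for lost regions and 19.1 kb (17.4 to 20.5 kb) for stable regions with FLAG. Within 10 kb of a TSS were 38.6% of stable and 24.95% of lost regions. The centre of 51.8% of stable regions was intergenic, of 44.8% intronic and of 3.33% exonic (195 regions, 95% interval 2.89% to 3.83%), compared with 53.6%, 44.7% and 1.75% of lost regions. The TSS of the nearest protein-coding gene had an H3K27ac region within 2.5 kb in both THF lists for 52.1% of stable regions (50.8% to 53.4%) and 45.6% of lost regions (44.0% to 47.3%). Of these marked promoters, 94.98% near stable and 91.9% near lost regions were also marked in both 4-OHT lists.

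Stable regions tended to have stable neighbours. Of the 2945 stable regions with another narrow distal region within 10 kb, the nearest such neighbour was a stable region without FLAG in 67.3% and a lost region in 11.6%. Of 1938 lost regions with such a neighbour, it was a stable region in 17.4% and a lost region in 51.5%, and over all narrow distal regions a stable neighbour was found in 42.1%. Neighbours share their chromosome and often their gene, some are separated only by short gaps, and no test was made. The group of a neighbour and the FLAG distances below come from the H3K27ac and FLAG lists that the selection used. These shares and distances are therefore a description. With regions within 1 kb joined, there were 4552 stable regions. The distance to the nearest FLAG region was 43.1 kb at the median for stable and 32.4 kb for lost regions, and 3.59% of stable and 11.6% of lost regions had a FLAG region within 1 kb. Stable regions were found on every chromosome with narrow distal regions, from 38.7% to 55.1% of those on each, with the highest share on chromosome 15 (311 of 564).

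The sequence of the central 300 bp, which the selection did not use, differed between stable and lost regions. It was searched on both strands for 16 motifs spelled out as T-box (AGGTGTGA), GATA factor site (AGATAAG), Fox (TGTTTAC), CTCF (AGGGGGCG), Klf (GGGTGTGG), Sp (GGGCGGGG), Esrrb (TCAAGGTCA), octamer (ATGCAAAT), Sox (AACAATG), Tcf/Lef (ATCAAAG), Tead (CATTCCA), AP-1 (TGAGTCA), NRF1 (GCGCATGCG), Ets (CCGGAAGT), Grhl (AACCGGTT) and YY1 (AAGATGGCG). No motif contains another. AP-1 was found in 780 stable regions, 13.3% (95% interval 12.5% to 14.2%), against 5.46% (4.74% to 6.25%) of lost regions and 9.27% of all narrow distal regions. The difference between stable and lost regions was 7.87 percentage points (95% Wald interval 6.73 to 9.02). As a ratio, the AP-1 share of stable regions was 2.44 times that of lost regions. The ratio was higher for the rarer YY1 (5.52), CTCF (3.40) and NRF1 (3.07). NRF1 was in only 5 stable regions and 1 lost region, and its difference of 0.058 points had an interval from -0.035 to 0.15. The AP-1 share was 5.96% in regions kept in 1 4-OHT list, 8.70% (7.26% to 10.3%) in stable regions with FLAG, 5.53% in other regions with FLAG and 4.35% in 13418 H3K27ac regions at promoters. The intervals here cover counting error only, since regions are not replicates of a condition, and a match is a string of letters and not a measured binding site.

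**Figure D2:**
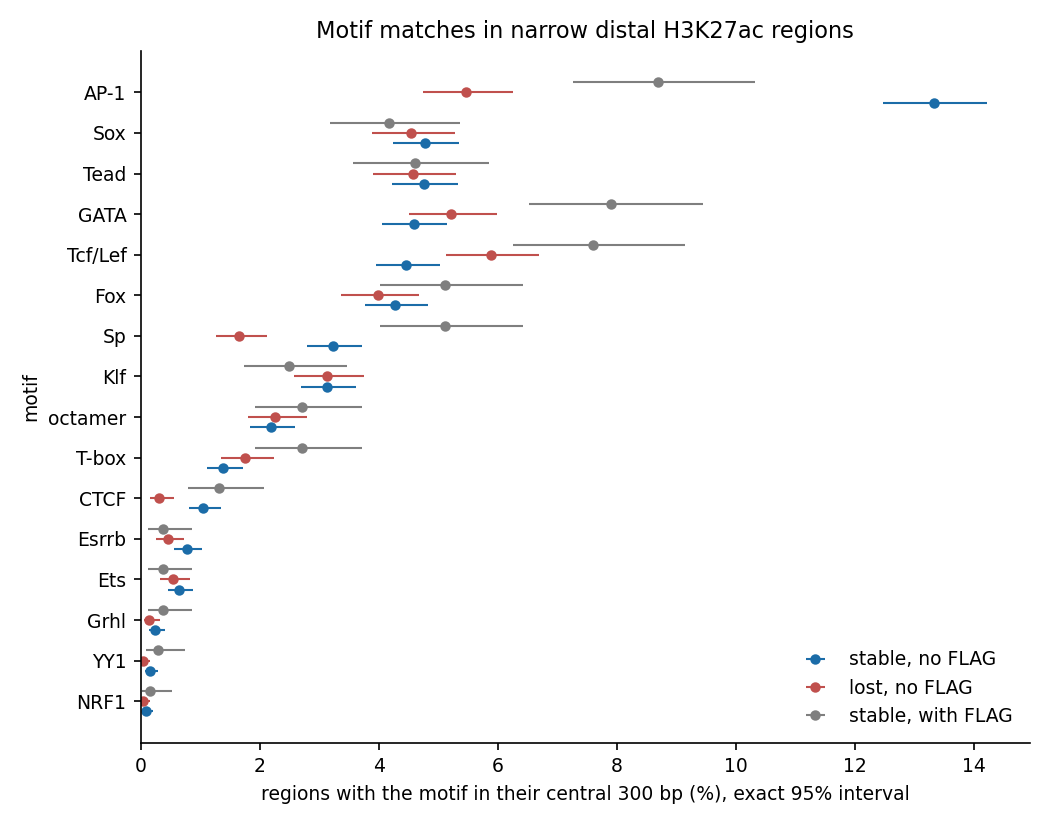
Share of regions (x axis, %) with a match to each of 16 motifs (y axis) in the central 300 bp, in stable regions without FLAG, lost regions and stable regions with FLAG. Points are shares and lines exact 95% binomial intervals. AP-1 is the most frequent motif in stable regions without FLAG, at 13.3%, and its interval there lies above those of the other groups.

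No motif of a factor known for early mesoderm had a share in stable regions that exceeded the share in lost regions beyond its interval. Tcf/Lef, the motif of the Wnt pathway's DNA-binding factors, was found in 4.46% of stable and 5.88% of lost regions, a difference of -1.42 points (95% interval -2.35 to -0.48). The T-box letters, bound by factors such as Brachyury and Eomes, were in 1.38% of stable, 1.75% of lost and 2.70% of stable regions with FLAG. The difference from lost regions, -0.37 points (-0.89 to 0.15), included 0, and that from stable regions with FLAG, -1.32 points (-2.23 to -0.41), did not. GATA gave 4.58%, 5.21% and 7.89% in the same order, with differences of -0.63 points (-1.53 to 0.28) and -3.31 points (-4.84 to -1.79). For Fox the difference from lost regions was 0.29 points (-0.53 to 1.11), and for Sox, Tead, Klf and octamer it was closer to 0.

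The GC-rich CTCF and Sp motifs were more frequent in stable than in lost regions. CTCF letters, of the factor that holds chromatin loops, were in 61 stable regions (1.04%, 95% interval 0.80% to 1.34%) and 11 lost regions (0.31%, 0.15% to 0.55%). Sp letters, common at CpG islands, were in 3.23% of stable and 1.64% of lost regions, a difference of 1.59 points (0.97 to 2.20), and in 5.12% of stable regions with FLAG. The Esrrb letters were in 0.77% of stable and 0.45% of lost regions, a difference of 0.32 points (0.011 to 0.64), and YY1 in 9 stable regions and 1 lost region, a difference of 0.13 points (0.012 to 0.24). Windows with at least 10 CpGs, a limit chosen after the values were seen, made up 9.30% of stable regions (8.57% to 10.1%), 2.87% of lost regions and 11.1% of stable regions with FLAG. Of the 544 stable regions of this kind, 67.5% were intergenic and 24.4% intronic. The median GC content was 47.7% in stable and 47.3% in lost regions. The AP-1 share was 13.9% of stable and 5.48% of lost regions among windows with fewer than 10 CpGs.

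The AP-1 matches lay within the H3K27ac region. In windows of 250 bp placed at steps from the centre of each stable region, the share with a match was between 10.8% and 11.9% from 300 bp before to 300 bp after the centre, and between 4.07% and 4.60% from 1500 to 2000 bp before it. In lost regions it was 4.68% at the centre and between 4.40% and 4.76% from 1500 to 2000 bp before it. In windows of 300 bp that were 2 kb before and after the centre, the share was 5.47% and 5.64% for stable regions and 5.54% and 4.93% for lost regions. Over the whole length of the regions there were 0.40 matches per kb in stable regions, 0.19 in lost regions and 0.26 in stable regions with FLAG.

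**Figure D3:**
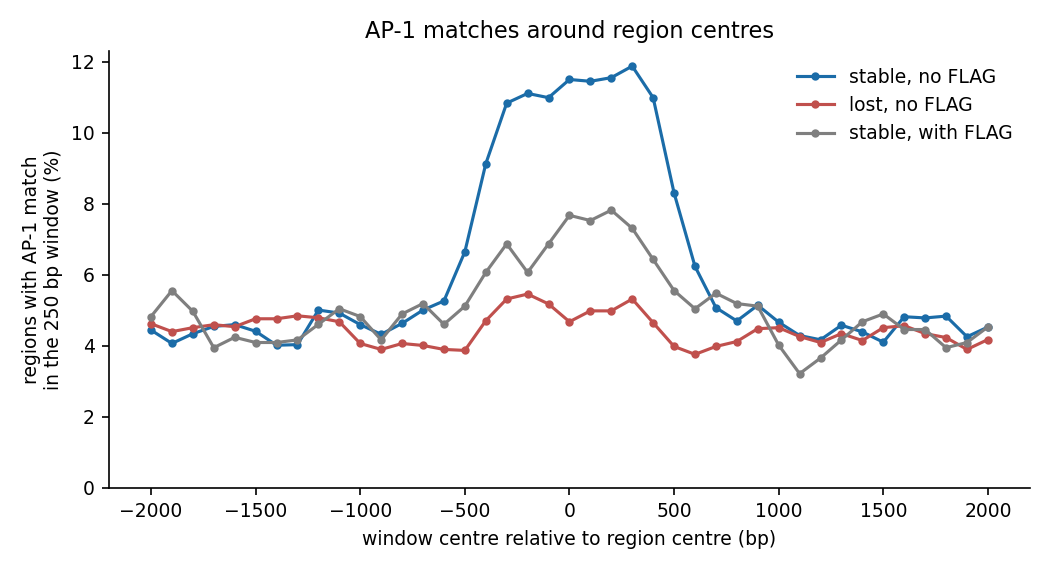
Share of regions (y axis, %) with an AP-1 match in a 250 bp window, by the position of the window centre relative to the region centre (x axis, bp), for stable regions without FLAG, lost regions and stable regions with FLAG. The stable regions without FLAG rise from about the level of the other groups at the edges to 11.5% at the centre, where lost regions are at 4.68% and stable regions with FLAG at 7.68%.

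The share of stable regions with AP-1 varied with width and less with distance to a TSS. For stable regions under 300 bp it was 6.01% (95% interval 4.24% to 8.22%), where lost regions had 4.26% (3.00% to 5.85%). It was 6.57% (5.43% to 7.88%) for stable regions of 300 to under 600 bp, where lost regions had 5.10% (4.06% to 6.32%). In both of these bins the intervals overlapped. From 600 to under 1000 bp it was 13.9% (12.1% to 15.8%) against 6.77% (4.98% to 8.95%), and from 1000 to under 1500 bp 23.8% (21.3% to 26.4%) against 6.77% (4.47% to 9.76%). In the last of these bins stable regions with FLAG had 13.1% (9.30% to 17.8%). From 1500 to under 2000 bp the share was 17.7% of stable regions and 10 of 119 lost regions. From 2000 to under 3000 bp it was 14.3% of stable regions and 0 of 29 lost regions. The difference of 7.87 points given above is over all widths, and lost regions were narrower than stable ones. The share in stable regions was 10.8% from 2.5 to 5 kb from a TSS and 15.3% beyond 100 kb, compared with 4.57% and 4.87% of lost regions. It was 13.4% both in intergenic and in intronic stable regions.

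**Figure D4:**
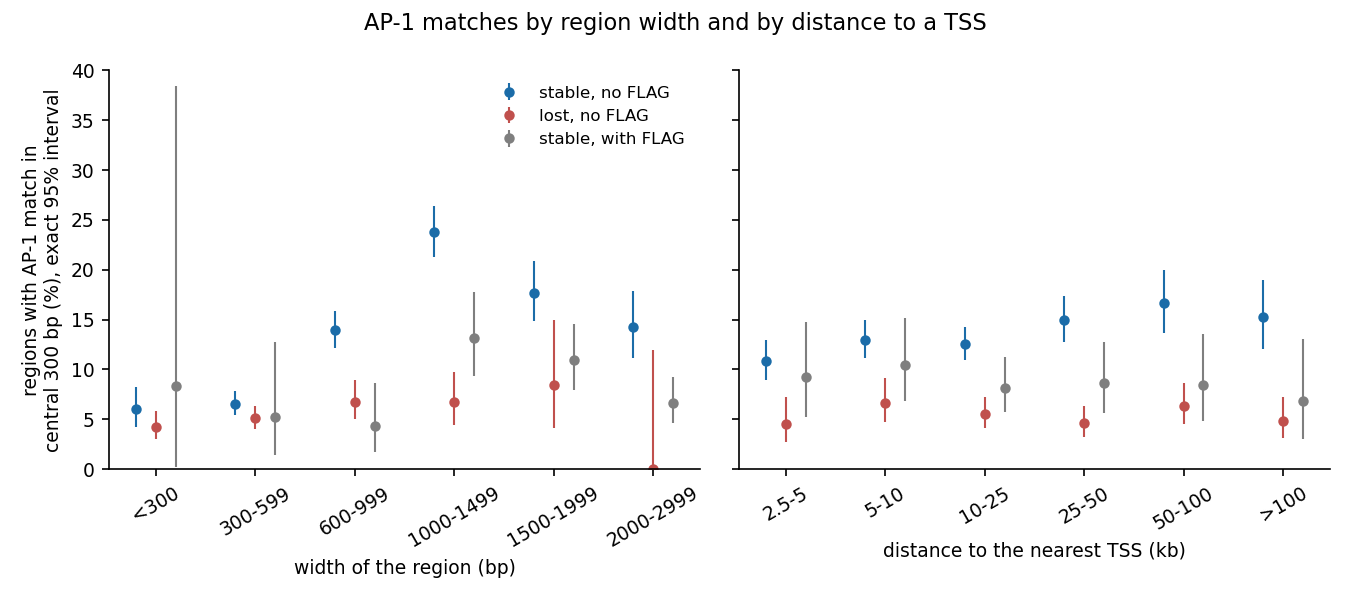
Share of regions (y axis, %) with an AP-1 match in the central 300 bp, by region width in bp (left) and by distance to the nearest TSS in kb (right), for stable regions without FLAG, lost regions and stable regions with FLAG. Lines are exact 95% binomial intervals. The stable regions without FLAG reach 23.8% in the fourth width bin, from 1000 bp, and lie above lost regions at every distance from a TSS.

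The covered lengths of stable regions with and without AP-1 are given as a description, since the selection used the same H3K27ac lists. The 780 regions with AP-1 had a median width of 1100 bp against 700 bp for the other 5071, and median covered lengths of 1025, 750, 900 and 825 bp in THF replicates 1 and 2 and 4-OHT replicates 1 and 2. THF replicate 2 had the lowest median of the 4 lists for the regions with AP-1. Both 4-OHT lengths were below both THF lengths in 18.1% of stable regions with AP-1 and in 26.1% of those without. Whether the lower lengths in THF replicate 2 play a part in these shares was not tested. When the stable regions were ordered by the log2 ratio of covered length and divided into 5 equal groups, AP-1 was found in 7.77% (6.30% to 9.46%) of the group with the largest decrease and in 16.3% (14.3% to 18.6%) of that with the largest increase. Nothing is read from these shares. Among all narrow distal regions of each list, AP-1 was in 8.61% and 6.94% of those of THF replicates 1 and 2, in 9.63% and 8.55% of those of 4-OHT replicates 1 and 2, and in 5.85%, 5.20% and 5.07% of those of the FLAG lists. With THF replicate 1 or THF replicate 2 left out, the AP-1 share was 9.84% or 11.8% of stable regions, and it exceeded that of lost regions by 4.37 or 5.89 points. Whether the difference between the THF libraries plays a part in the AP-1 share was not tested.

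Tandem arrays of AP-1 letters were found in stable regions. Of the 780 stable regions with AP-1, 672 had 1 match in the central 300 bp, 80 had 2, 10 had 3 and 18 had 4 or more, up to 10 in *Nell2*. No region of the other groups had more than 2. The 18 arrays lay on 13 chromosomes, 9 in introns and 9 between genes, and were 575 to 2325 bp wide. The *Nell2* array at chr15:95106376-95108025 had covered lengths of 1650, 1150, 1600 and 1625 bp in THF replicates 1 and 2 and 4-OHT replicates 1 and 2, and that near *Pomc* at chr12:3972326-3974500 had 2175, 1800, 2175 and 2175 bp. The *Foxa2* array at chr2:147568826-147571075, 301 kb from the TSS of this endoderm forkhead gene, had 2250, 1850, 2150 and 2225 bp. THF replicate 2 had the lowest covered length of the 4 lists at all 18 arrays, and both 4-OHT lengths exceeded it at 17.

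The AP-1 share was as high in windows that shared no word of 24 bases with another narrow distal region. Diverged copies, and copies outside the narrow distal regions, are not found in this way. A central window shared at least 1 word of 24 bases with another narrow distal region in 756 stable regions (12.9%) and 279 lost regions (7.77%). In the 5095 stable regions that shared none, AP-1 was in 13.3% (12.4% to 14.3%), and in the corresponding 3312 lost regions in 5.56% (4.80% to 6.39%). The group of 41 stable regions shown above also held 2 lost regions and 1 kept in 1 4-OHT list and had no region with FLAG. The *Syt15* member of this group had covered lengths of 1900, 2125, 1925 and 1925 bp in THF replicates 1 and 2 and 4-OHT replicates 1 and 2. AP-1 was in 34 of the 41, their median width was 1300 bp, and 27 were intergenic. Aligned on the AP-1 letters, these 34 matched the commonest base at a median of 87.0% of the 54 flanking positions, with 22.2% as the lowest value. The largest group of related windows held 112 stable and 44 lost regions, with AP-1 in 7 of the 112. No annotation of repeats was used.

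H3K27me3 and Suz12 regions were rare at the stable regions in every list. An H3K27me3 region of at least 1 of the 6 lists overlapped 25 stable regions (0.43%, 95% interval 0.28% to 0.63%, against 0.454% of all narrow distal regions). In THF replicates 1, 2 and 3 it was 15, 11 and 8 stable regions, and in 4-OHT replicates 1, 2 and 3 it was 5, 5 and 7. The mean share was 0.19% ± 0.060 in THF and 0.097% ± 0.020 in 4-OHT (SD, n = 3), with no overlap between conditions. The difference of -0.097 points had a two-sided exact permutation p of 0.1, the smallest that 3 against 3 allows. The H3K27me3 lists covered 8.38 to 11.0 Mb in THF and 4.74 to 8.99 Mb in 4-OHT. When the same number of regions, the widest, was taken from each list, the difference was -0.017 points (exact permutation p = 0.8). With same-numbered replicates paired, the difference had an exact sign-flip p of 0.25, the smallest that 3 pairs allow. Over the 6 lists the share of stable regions exceeded that of lost regions by 0.034 points (exact two-sided sign-flip p = 0.4375). That last test takes the 6 lists as independent, without the pairing.

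Suz12 overlapped 15 stable regions in at least 1 of 4 lists (0.26%, against 0.253% of all narrow distal regions). The numbers in THF replicates 1 and 2 were 4 and 3 and in 4-OHT replicates 1 and 2 were 6 and 15, so the conditions did not overlap. The mean share was 0.060% ± 0.012 in THF and 0.18% ± 0.11 in 4-OHT (SD, n = 2), and the exact permutation p of 0.333 is the smallest that 2 against 2 allows. The difference of 0.12 points was 0.043 points without 4-OHT replicate 2 and 0.20 points without 4-OHT replicate 1, and 0.043 points (exact permutation p = 0.667) with the same number of regions taken from each list. Compared with lost regions, of which 0, 0, 2 and 3 were overlapped in these lists, the share of stable regions was higher in 4 of 4 lists, by 0.085 points on average (exact two-sided sign-flip p = 0.125, the smallest for 4 lists).

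The stable regions with the most H3K27me3 or Suz12 were nearest to *Wnt10a*, *Gata2*, *Zfp703*, *Calcoco1* and *Dcaf4*. A region in an intron of *Wnt10a*, a Wnt ligand gene, at chr1:74841051-74842350 was covered by H3K27me3 over 175, 1300 and 1150 bp in THF replicates 1 to 3 and 0, 825 and 925 bp in 4-OHT replicates 1 to 3. Its H3K27ac covered lengths were 1300 and 450 bp in THF and 1300 and 1250 bp in 4-OHT. In an intron of *Gata2*, a regulator of blood progenitors, the region at chr6:88153301-88154375 had 250, 1075 and 1075 bp of H3K27me3 in THF and 25, 775 and 1075 bp in 4-OHT. Suz12 covered it over 1075 and 1075 bp in THF and 425 and 1075 bp in 4-OHT. Both marks were listed over these bases in bulk cultures, and a mixture of cells cannot be told apart from both marks on the same nucleosomes. A region 24.7 kb upstream of *Calcoco1* had 25, 825 and 125 bp of H3K27me3 in THF and 0 in all 3 4-OHT lists, with Suz12 over 900 and 725 bp in THF and 375 and 950 bp in 4-OHT. Its central 200 bases are shown for their 20 CpGs, which are in capitals.
Calcoco1, chr15:102577213-102577412: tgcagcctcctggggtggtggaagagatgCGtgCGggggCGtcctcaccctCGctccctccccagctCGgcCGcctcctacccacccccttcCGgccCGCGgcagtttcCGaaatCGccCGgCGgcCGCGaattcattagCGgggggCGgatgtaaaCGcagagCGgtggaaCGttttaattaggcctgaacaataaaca

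By nearest protein-coding gene, the stable regions were spread over 3657 genes, of which 2361 had a single stable region. The gene with the most was *Rbpms*, with 13, and it had no lost region. Of these 13, 10 lay within the gene and 4 had an AP-1 match in the central window. The region at chr8:35019576-35020775, the sequence of which is shown above, had covered lengths of 1050, 1100, 1200 and 1200 bp in THF replicates 1 and 2 and 4-OHT replicates 1 and 2. The *Rbpms* region at chr8:35070676-35072750, upstream of the gene, had 2050, 2075, 1125 and 25 bp and was lower in both 4-OHT lists. *Myh9*, the heavy chain of non-muscle myosin IIA, had 12 stable regions, no lost region and no region with FLAG. Several of these lay close together, as where 1 ended at chr15:77652475 and the next began at chr15:77652701. Such regions are counted separately here and for other genes. The *Myh9* region at chr15:77652701-77655350 had covered lengths of 2525, 2250, 2650 and 2300 bp, with 4-OHT values on both sides of the THF values. The *Myh9* region at chr15:77681526-77682750 had 825, 1225, 425 and 150 bp and so was lower in both 4-OHT lists while counted as stable. None of the 12 had an AP-1 match in the centre. *Pcmtd1* had 10 stable regions, *6430527G18Rik* and *Jmjd1c*, a jumonji-domain protein gene, had 9 each, and *Fto*, *Trio*, *Unc5b* and *Ywhaz* had 8 each. The netrin receptor gene *Unc5b* had no lost region and no FLAG region, and *Trio* had no lost region.

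Genes of the actin cytoskeleton, adhesion and matrix were nearest to more stable regions without FLAG than lost regions. Genes of the primitive streak and mesoderm were nearest to more lost regions than stable regions without FLAG. The gene lists were chosen with earlier results of these data known. Of 96 narrow distal regions nearest to 25 actin, adhesion and matrix genes, 61 were stable without FLAG (63.5%, against 43.5% of all narrow distal regions) and 12 were lost. *Myh9* alone had 12 of the 61. The E-cadherin gene *Cdh1* and the tropomyosin gene *Tpm1* had 7 stable regions each and no lost one, and *Actn4*, an actin cross-linker gene, had 6 and 1. Of 47 regions nearest to cell cycle, growth and metabolism genes, 28 were stable (59.6%) and 9 were lost. *Eef1a1*, a translation elongation factor gene, had 5 stable regions and none of the other groups. *Myc* had 6 stable, 3 lost and 2 kept in 1 list.

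**Figure D5:**
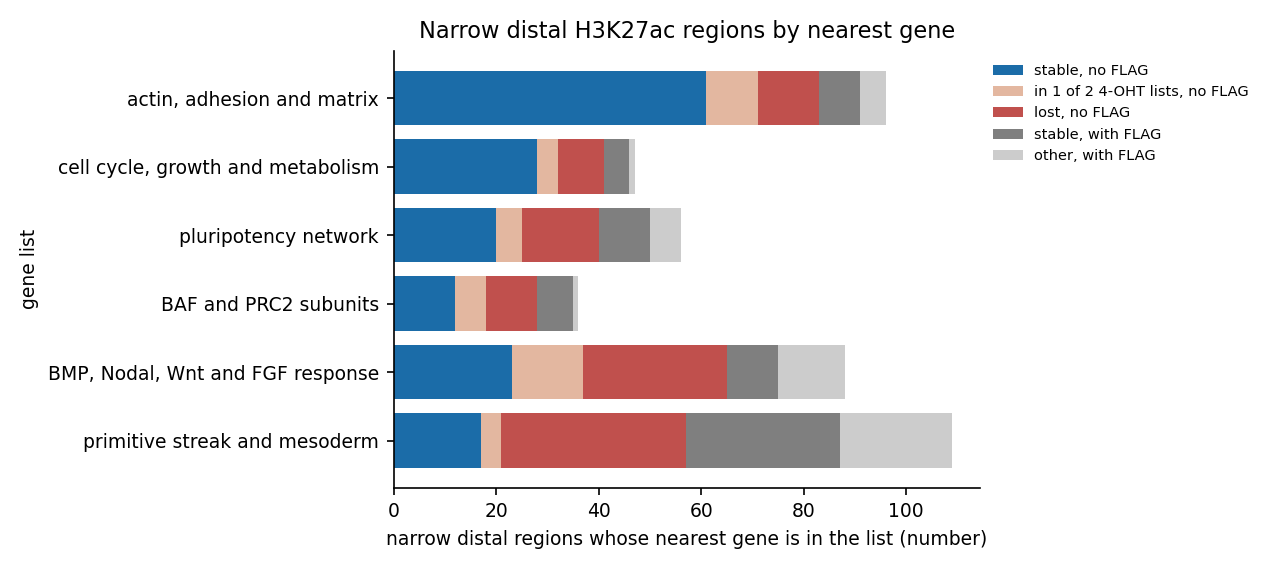
Number of narrow distal regions (x axis) whose nearest protein-coding gene belongs to each of 6 gene lists (y axis), divided into stable without FLAG, kept in 1 4-OHT list, lost, and 2 groups with FLAG. Stable regions without FLAG make up 61 of 96 regions for actin, adhesion and matrix genes and 17 of 109 for primitive streak and mesoderm genes.

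Of 109 regions nearest to primitive streak and mesoderm genes, 17 were stable without FLAG (15.6%), 36 were lost, 30 were stable with FLAG and 22 were other regions with FLAG. *Fgf8*, a ligand of the primitive streak, had 3 stable regions and none of the other groups, and *Cxcr4*, a chemokine receptor gene of migrating mesoderm, had 2 stable and 8 lost regions. The *Cxcr4* region at chr1:130447751-130450050 had 1825 and 2300 bp in THF and 250 and 1125 bp in 4-OHT, with both 4-OHT values lower. The lists of signalling response genes, pluripotency genes and BAF and PRC2 subunit genes had 23 of 88 (26.1%), 20 of 56 (35.7%) and 12 of 36 (33.3%) regions that were stable without FLAG. For 2 short lists of genes taken from the text of the study, the counts were 4 of 33 and 8 of 16. The study chose these genes by their expression in the same kind of cultures, so their counts are not independent evidence. This holds also for *Kdr*, *Mesp1*, *Cxcr4*, *Cyp26a1* and *Snai1* within the primitive streak and mesoderm list, which contains them as well. All these counts are descriptions, in which regions that share a gene are not independent and several genes are in more than 1 list. Regions separated by short gaps are counted separately.

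Single regions near named genes showed the range of levels. Near *Mesp1* the region at chr7:86933351-86934150, 4.92 kb downstream of the TSS and 0.28 kb from a FLAG region, had H3K27ac over 650 and 800 bp in THF and 575 and 525 bp in 4-OHT, with both 4-OHT values lower. The region 8.02 kb upstream of *Nodal* had 1100 and 1300 bp in THF and 300 and 200 bp in 4-OHT and was also lower in both 4-OHT lists. Near *Cyp26a1*, a retinoic acid degrading enzyme gene, a region 161 kb downstream had 1175 and 1500 bp in THF and 250 and 575 bp in 4-OHT. At *Evx1*, a homeobox gene of the streak, the region 6.68 kb upstream had 950 and 1275 bp in THF and 550 and 800 bp in 4-OHT. Each of these regions met the selection because a region of both 4-OHT lists still overlapped it.

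The region near *Fgf4*, a growth factor gene of pluripotent cells, had 1075 and 525 bp in THF and 925 and 1075 bp in 4-OHT. The region 5.34 kb upstream of *Prdm14*, a pluripotency regulator, had 200 and 275 bp in THF and 225 and 225 bp in 4-OHT, so that the conditions overlapped for both genes. The region 3.13 kb downstream of the *Actb* TSS had 1025 and 650 bp in THF and 1050 and 1050 bp in 4-OHT. In *Smarcc2* the region with AP-1 had 350 and 100 bp in THF and 350 and 250 bp in 4-OHT. The region in an intron of *Wnt4* had 1725 and 1375 bp in THF and 1775 and 1250 bp in 4-OHT. At *Actb* both 4-OHT values were above both THF values, and at *Smarcc2* and *Wnt4* the conditions overlapped.

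Outside chromosome 18, which was left out of this ranking, 6 regions had the greatest covered length in their lowest list. They lay in *Dst*, a cytoskeletal linker gene, and *Neo1*, a netrin family receptor gene, and near *Eef1a1*, *6430527G18Rik*, *Idi2* and *Psma3*. Their covered lengths were between 2675 and 2975 bp in every list, none had AP-1 in the central window, and the nearest FLAG region was 1.58 kb away for *Dst* and from 17.0 to 140.5 kb away for the others. The *Dst* region had 2950 and 2950 bp in THF and 2975 and 2975 bp in 4-OHT.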

How the data were processed

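ChIP-seq for H3K27ac, H3K27me3, Suz12 and FLAG was read from 17 lists that the authors deposited, 1 for each sample other than the 11 inputs. The submitters' processing notes name Bowtie and the mm9 build. The study describes an input-corrected Poissonian model for FLAG. Per the labels, FLAG regions passed a p-value of 1e-06 and a cutoff of 2-fold over input. The names of the other lists carry 1e-12, and their caller is not given in the sources used here. There is 1 list for each replicate. The deposited values are positions only, with no score or count, so depth is unknown, and a region near the threshold can be called in 1 library and not in another. All edges are multiples of 25 bp.

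Groups and replicate numbers came from the sample titles. Regions sharing at least 1 bp were merged, and distances were taken from region edges to 86842 TSSs of the GENCODE M1 annotation of mm9. Nearest genes were measured from region centres to protein-coding TSSs. Sequences came from the same build, with motif letters searched in the central 300 bp. Shares have exact 95% binomial intervals and differences of shares Wald intervals. H3K27me3 and Suz12 shares per list were compared by exact two-sided permutation or sign-flip tests over lists. Regions were named when they had the greatest covered length in their lowest H3K27ac list, lay nearest to a TSS of a listed gene, had the most H3K27me3 or Suz12, lay at the selection limits, or belonged to 1 of the 10 genes with the most stable regions. Chromosome 18 was left out of the ranking by covered length. Not every gene that these rules name is reported here. Others are said to have been chosen after their values were seen. The members, gene lists and motifs were chosen with earlier results of these data known.

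Same-numbered replicates deviated together from their condition means over merged regions, with correlations of 0.93, 0.87 and 0.80 for H3K27me3 replicates 1, 2 and 3, which puts each pair over 0.1. The numbers were thus taken to pair the H3K27me3 samples, a judgement that rests on the lists and not on a label. With 2 replicates the correlation was 0.42 for H3K27ac and 0.44 for Suz12. The assignment of regions to groups and the counting of covered bases were tested on simulated regions. Alternatives changed each selection limit, the overlap, the window and the replicates used. Tests ran in SciPy 1.17.1 with NumPy 2.4.6 under Python 3.11.15, and plots were drawn with Matplotlib 3.10.9.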

Additional observations from a re-analysis of the deposited data

Results flagged for a closer look

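The share of regions overlapped by H3K27me3 was higher in stable than in lost regions in all 3 THF lists and lower in all 3 4-OHT lists. The difference, stable minus lost, was 0.12, 0.16 and 0.081 points in THF replicates 1, 2 and 3, and -0.026, -0.082 and -0.047 points in 4-OHT replicates 1, 2 and 3. The change from THF to 4-OHT was -0.171 points, with an exact two-sided permutation p of 0.1, the smallest that 3 against 3 allows. With same-numbered replicates paired, the exact sign-flip p was 0.25, the smallest for 3 pairs. The result was flagged because the sign was opposite in all 3 THF and all 3 4-OHT lists. That rule fixes both p-values at their smallest, so they add no support. When H3K27me3 within 1 kb was counted, stable minus lost was above 0 in all 3 THF and all 3 4-OHT lists, from 0.078 to 0.62 points, and the change from THF to 4-OHT was -0.34 points (exact permutation p = 0.1). With the same number of regions from each list it was above 0 in 3 THF lists and 1 4-OHT list (change -0.10 points, exact permutation p = 0.2). These further settings were added after seeing the data. The reported change rests on 5 to 15 stable and 1 to 6 lost regions per list.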

How the results depend on the processing

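The number of stable regions lay between 4315 and 8236 under 18 alternatives, within 1.5 times the reported number in each. The AP-1 share of stable regions moved beyond its 95% interval to 12.0% when a region of either 4-OHT list was enough, 15.2% when each 4-OHT list had to cover at least 50% of the region, 19.0% when regions within 1 kb were joined, 11.6% with regions of either THF list, and 21.2% in windows of 500 bp. With each H3K27ac or FLAG replicate left out in turn it lay between 9.84% and 13.3%. It exceeded the share of lost regions under all 21 alternatives, by 4.37 to 12.4 points. In windows sharing no 24-base word and in those with fewer than 10 CpGs, it was 13.3% and 13.9%. Both of these alternatives, and those without FLAG replicate 1 or 2, were chosen after seeing the data.

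The mean H3K27me3 share of stable minus lost regions turned to -0.020 points with a TSS limit of 1 kb and -0.014 points when at least 50% of the region had to be covered. It was 0.33 points (exact sign-flip p = 0.03125, the smallest for 6 lists) when H3K27me3 within 1 kb was counted. That test takes the 6 lists as independent, although same-numbered H3K27me3 replicates were taken as pairs. With 3 pairs the smallest sign-flip p is 0.25. With each H3K27ac, FLAG or H3K27me3 replicate left out it lay between -0.024 and 0.079 points, and was below 0 without THF replicate 1 or without 4-OHT replicate 2 of H3K27ac. The cause of these changes was not tested. The H3K27me3 difference between 4-OHT and THF was below 0 under all 28 alternatives, from -0.32 points with H3K27me3 within 1 kb to -0.017 points with equal numbers of regions per list or with at least 50% of the region covered, and the Suz12 difference above 0 under all 26, from 0.026 points with at least 50% covered to 0.20 points within 1 kb or without 4-OHT replicate 1. With the replicate block the H3K27me3 difference stayed -0.097 points (exact p = 0.25) and the Suz12 difference 0.12 points (exact p = 0.5), the smallest p that 3 and 2 pairs allow. Unknown depth limits every absence from a list. The number of stable regions was 5852 without FLAG replicate 3, 6192 and 6246 without FLAG replicates 1 and 2, and 6882 and 8132 without THF replicates 1 and 2 of H3K27ac.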

Other observations

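Distal H3K27ac regions under 3000 bp wide that were called in both 4-OHT lists and in no THF list numbered 1364, and 100 of them (7.33%, exact 95% binomial interval 6.00% to 8.85%) had an AP-1 match in the central 300 bp, compared with 13.3% of the stable regions. Among the AP-1 matches over the whole length of the stable regions, 138 of 2167 (6.37%, 95% interval 5.38% to 7.48%) were part of the longer ATGAGTCAT, against 16 of 385 (4.16%, 2.39% to 6.66%) in lost regions.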
